A study of Mus musculus with 12 samples.

Results

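The genes described here are p53 targets and growth arrest genes of the mouse liver: Cdkn1a, Mdm2, Ccng1, Bax, Gadd45a, Gadd45b, Btg2, Phlda3, Zmat3 and Eda2r. They were chosen by name, as genes whose symbol is on this list, and the list was made with earlier results of these data known. All 10 were found among 24296 genes with a symbol, as 35 transcripts, and all 10 were abundant enough to be tested.

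RNA sequencing of whole liver from male C57/BL6N mice gave 12 liver samples in 4 groups of 3. Control mice are labelled WT, and the labels do not say what they received in place of CCl4. Model mice received carbon tetrachloride (CCl4), a solvent that injures liver cells, by intraperitoneal injection 2 times a week for 8 weeks. The CCl4 was diluted in olive oil, and 5 mL of this dilution, not of CCl4 itself, was given per kg. Silibinin mice received the same CCl4 course and, from week 5, silibinin, a milk thistle flavonolignan used in liver disease. Phloridzin mice received the same CCl4 course and, from week 5, phloridzin, a plant dihydrochalcone glucoside, at the high dose of the study. The age of the mice is not in the labels, which also do not say that each sample is a separate animal, so the p-values measure the spread between these samples.

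p53 is a transcription factor that accumulates when DNA or the cell is damaged and switches on genes that stop the cell cycle, repair DNA or kill the cell. Its own inhibitor, Mdm2, is among its targets, which closes a negative feedback loop. In liver these genes respond to toxins and partial hepatectomy, and several of them, such as Btg2 and the Gadd45 genes, also respond to stress and growth signals that do not pass through p53.

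Values are FPKM (fragments scaled to transcript length and library size), summed over the transcripts of a gene, so that levels of different genes can be compared per length. The depth read from the values was 105.1 to 109.3 M fragments in control livers, with a median of 108.2. It was 83.6 to 101.4 in model livers, 106.6 to 110.9 in silibinin livers and 98 to 104.5 in phloridzin livers, with medians of 100.1, 109.7 and 102.1. Among the members, the number of fragments behind a value ran from 69 for Gadd45b in control replicate 2 to 10812 for Btg2 in model replicate 2. Differences between groups are on the scale of log2(FPKM + 1), which understates changes of genes with low values. A gene is called differentially expressed (DE) when limma gave an adjusted p under 0.05 over all 13158 genes tested and the log2 difference was above 1 or below -1.

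The tissue label was checked against 10 hepatocyte markers. All 10 were found and none was at 0 in any liver. Alb, which encodes albumin, was the most abundant, with a mean of 18380 FPKM.

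In the CCl4 model, 6 of 10 members were DE against control and all 6 were higher: Gadd45a, Btg2, Eda2r, Phlda3, Cdkn1a and Gadd45b. Among all genes tested, 10.5% were DE (1240 up and 142 down). The share of members called was above that of all genes, which is a description and not a test. The median log2 difference was 1.16 over the members and 0.34 over all genes. For 9 members, Ccng1 being the exception, every model liver was above every control liver, as it was for 45.1% of all genes tested (5932 of 13158). That background is high, so each member is also given below relative to the median of all genes, as the difference left after subtracting 0.34. In whole liver, fewer cells of a type and less RNA per cell cannot be told apart.

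**Figure D1:**
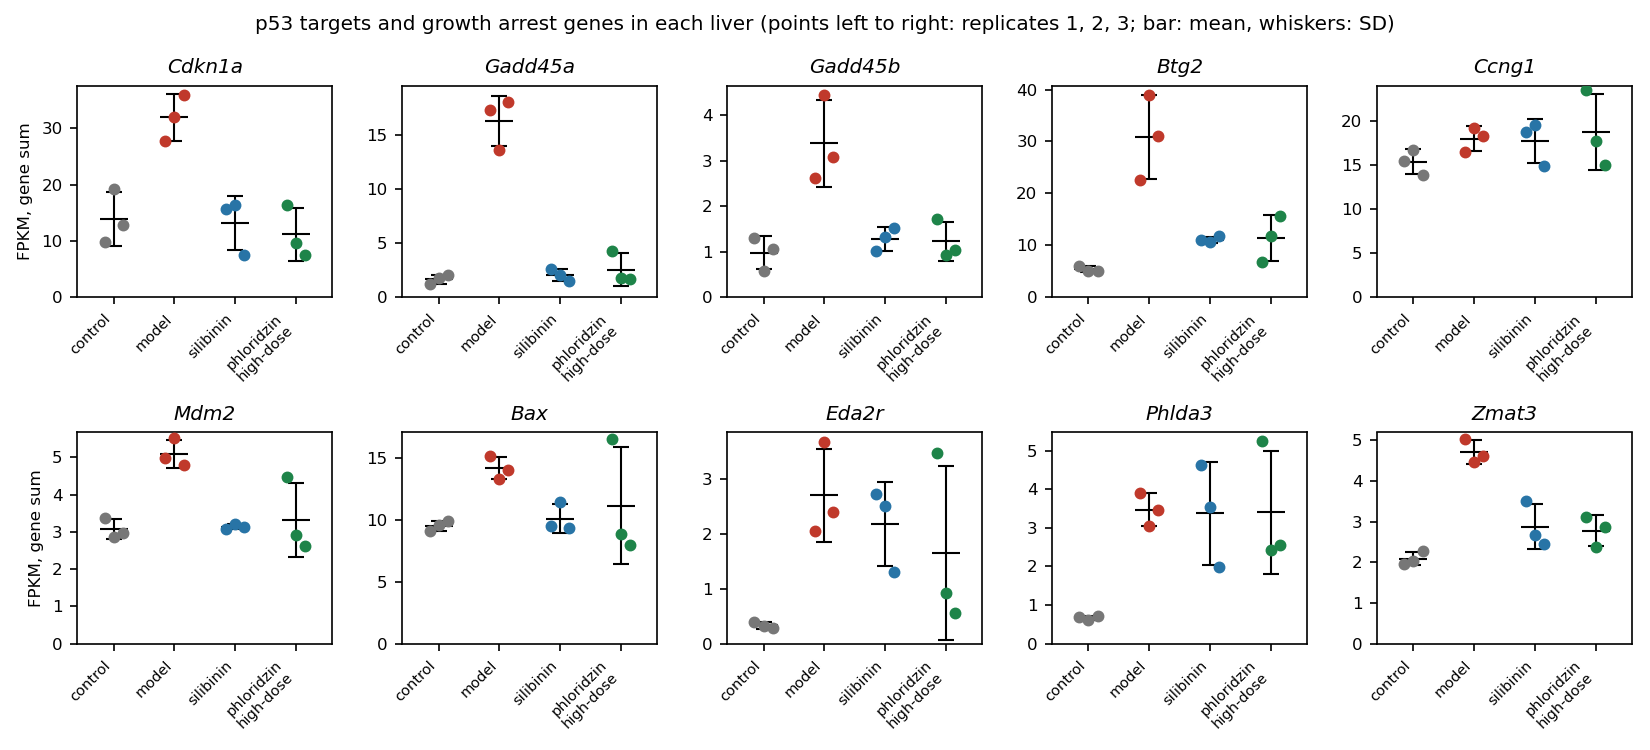
FPKM of each of the 10 members (vertical axis, from 0, a scale for each gene) in livers of each group, with phloridzin at the high dose; points are livers, the bar is the mean of 3 and the whiskers are the SD. Gadd45a stood at 13.6 to 18.0 in model livers and at 4.27 or less in the other 9, whereas Phlda3 stood at 1.97 or more in all CCl4 livers.

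Gadd45a encodes a stress sensor that binds proliferating cell nuclear antigen and Cdk1 and can hold cells before mitosis. It (ENSMUSG00000036390, chr6:67035096-67037457, minus strand, build mm10) stood at 1.21, 1.77 and 2.02 FPKM in control livers and at 17.3, 13.6 and 18.0 in model livers. In silibinin livers it stood at 2.56, 2.06 and 1.445, and in phloridzin livers at 4.27, 1.74 and 1.64. The model livers stood clear above all others, and the other 3 groups overlapped. Gadd45a rose by 2.70 on the log2 scale (SE 0.26, adjusted p = 0.000115 with limma), 2.36 above the median of all genes.

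Btg2 encodes an antiproliferative partner of the CCR4-NOT complex, which shortens messenger RNA tails. It (ENSMUSG00000020423, chr1:134075170-134079120, minus strand) stood at 6.03, 5.04 and 5.02 FPKM in control livers and at 22.6, 38.9 and 31.1 in model livers. In silibinin livers it stood at 11, 10.5 and 11.7, and in phloridzin livers at 6.71, 11.9 and 15.6. Every treated liver lay between the highest control and the lowest model liver, and phloridzin replicate 1 came closest to control. Btg2 rose by 2.30 in the model (SE 0.26, adjusted p = 0.000225 with limma), 1.96 above the median of all genes.

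Cdkn1a encodes p21, the cyclin-dependent kinase inhibitor that carries out much of the arrest by p53. It (ENSMUSG00000023067, chr17:29090979-29100722, plus strand) stood at 9.76, 19.2 and 12.9 FPKM in control livers and at 27.8, 32.1 and 36.0 in model livers. In silibinin livers it stood at 15.6, 16.4 and 7.57, and in phloridzin livers at 16.4, 9.61 and 7.43. Model livers did not overlap any other group, and control, silibinin and phloridzin livers overlapped each other.

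Cdkn1a rose by 1.18 in the model (SE 0.34, adjusted p = 0.0215 with limma), 0.84 above the median of all genes. This call was less stable than those of Gadd45a and Btg2. It held in 18 of 23 alternative settings, over which the adjusted p ran from 0.0119 to 0.0933. It was lost under median-ratio scaling (0.76, adjusted p = 0.0933). It was also lost without control replicate 1 (0.97, adjusted p = 0.0771), control replicate 3 (1.15, adjusted p = 0.0577), model replicate 2 (1.17, adjusted p = 0.0544) or model replicate 3 (1.10, adjusted p = 0.0648).

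Gadd45b, a relative of Gadd45a that binds MAP kinase kinases, was less abundant. It (ENSMUSG00000015312, chr10:80930073-80932204, plus strand) stood at 1.29, 0.577 and 1.06 FPKM in control livers and at 2.62, 4.45 and 3.07 in model livers. In silibinin livers it stood at 1.00, 1.32 and 1.53, and in phloridzin livers at 1.72, 0.929 and 1.03. The 3 model livers were again above all others, and the other groups overlapped. Gadd45b rose by 1.14 (SE 0.21, adjusted p = 0.00222 with limma), 0.81 above the median of all genes.

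The Gadd45b call held in 18 of 23 settings. It fell short of the fold threshold without control replicate 2 (0.99) or model replicate 2 (0.98), under scaling (0.87), with the leading transcript alone (0.95) and with protein-coding transcripts alone (1.00, just under the threshold).

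These 4 arrest genes were all DE in the model, so their promoters are shown, as the 250 bases before the start of the gene in RefSeq, read 5′ to 3′ along the gene. They were higher in all model livers than in any other liver, as were Mdm2 and Zmat3 and 16.7% of all genes tested (2198 of 13158). Sequences are from RefSeq, build GRCm38.p6. Windows were found for 9 members (10 windows, with 2 starts for Cdkn1a), out of 32851 windows in all. For Cdkn1a the window shown is chr17:29093519-29093768 on the plus strand. For Gadd45a it is chr6:67037408-67037657 on the minus strand, for Gadd45b chr10:80929841-80930090 on the plus strand, and for Btg2 chr1:134079156-134079405 on the minus strand. The RefSeq start lies 3, 1 and 35 bases before that of the leading transcript in the table for Cdkn1a, Gadd45a and Btg2, and 18 bases inside it for Gadd45b. The window of Gadd45a also overlaps the end of its gene span, which a minor transcript extends. That of Cdkn1a lies wholly inside its gene span, since a minor transcript begins at the other start. Capitals mark letters that matched a searched motif on either strand. Overlapping matches run together.
Cdkn1a: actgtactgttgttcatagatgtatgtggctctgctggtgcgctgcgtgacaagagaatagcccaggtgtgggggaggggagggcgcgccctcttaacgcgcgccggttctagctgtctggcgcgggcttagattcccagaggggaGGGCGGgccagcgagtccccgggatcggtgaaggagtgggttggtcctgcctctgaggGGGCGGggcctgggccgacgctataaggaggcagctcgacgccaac
Gadd45a: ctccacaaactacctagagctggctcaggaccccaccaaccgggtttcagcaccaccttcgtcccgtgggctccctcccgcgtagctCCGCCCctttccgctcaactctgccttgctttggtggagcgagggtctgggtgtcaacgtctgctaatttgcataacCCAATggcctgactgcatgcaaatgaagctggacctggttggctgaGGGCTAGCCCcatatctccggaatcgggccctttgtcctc
Gadd45b: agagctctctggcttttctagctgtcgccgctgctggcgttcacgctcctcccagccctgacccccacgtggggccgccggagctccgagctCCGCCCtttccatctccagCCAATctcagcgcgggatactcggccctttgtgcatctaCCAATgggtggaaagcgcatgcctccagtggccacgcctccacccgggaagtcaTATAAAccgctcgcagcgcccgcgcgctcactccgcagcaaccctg
Btg2: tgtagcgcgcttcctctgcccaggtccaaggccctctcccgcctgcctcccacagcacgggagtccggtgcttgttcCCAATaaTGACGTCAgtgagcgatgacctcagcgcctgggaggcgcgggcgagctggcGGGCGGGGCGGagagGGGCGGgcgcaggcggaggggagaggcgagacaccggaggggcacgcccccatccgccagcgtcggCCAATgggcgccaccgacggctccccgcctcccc

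The motifs searched on both strands were the TATA box (TATAAA), the CCAAT box (its own letters), the GC box (GGGCGG), the core of the cyclic AMP response element (TGACGT), the AP-1 motif (TGANTCA) and the p53 half-site, by its name. GGGCGG was in 8 of 10 member windows and in 32.7% of all windows, and it was in all 4 windows shown. CCAAT was in 6 member windows and in 33.8% of all, among them Gadd45a, Gadd45b and Btg2. TATAAA was in 2, those of Gadd45b and Eda2r, and in 12.4% of all. TGACGT was in the Btg2 window alone, on both strands with overlapping matches, and in 6.47% of all windows. TGANTCA was in no member window and in 6.75% of all.

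A p53 half-site match was in 5 member windows, those of Gadd45a, Bax, Mdm2, Ccng1 and Cdkn1a, and in 7.13% of all windows. In Gadd45a it lies 40 to 31 bases before the RefSeq start, as the last capitals of the sequence. In Cdkn1a it is in the window of the other start, chr17:29090729-29090978, and not in the one shown. A match is a description of letters, not evidence that a factor binds there.

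For Mdm2, Zmat3 and Ccng1, changes in the model were smaller than for the arrest genes above. Mdm2 encodes the ubiquitin ligase that marks p53 for degradation. It (ENSMUSG00000020184, chr10:117688875-117710758, minus strand) averaged 3.07 ± 0.262 FPKM in control and 5.09 ± 0.37 in model livers (SD, n = 3 each), without overlap. The log2 difference of 0.58 (SE 0.15, adjusted p = 0.0148 with limma) passed the p threshold and not the fold threshold, and lay 0.24 above the median of all genes. Under scaling it was 0.23 (adjusted p = 0.238, in a range of 0.0025 to 0.549 over 22 settings).

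Zmat3, whose product is a zinc finger protein that binds RNA and affects splicing, had a larger difference in the model. It (ENSMUSG00000027663, chr3:32334792-32366014, minus strand) averaged 2.09 ± 0.155 FPKM in control and 4.70 ± 0.296 in model livers (SD, n = 3 each). The log2 difference of 0.88 (SE 0.13, adjusted p = 0.000947 with limma) was below the fold threshold and 0.55 above the median of all genes. It passed both thresholds with a pseudocount of 0.1 (1.13) and with voom on recovered fragments (1.15).

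Ccng1 encodes cyclin G1, a p53 target that recruits a phosphatase to Mdm2. It (ENSMUSG00000020326, chr11:40748552-40755311, minus strand) had the highest mean of the members in control livers, at 15.5, 16.8 and 13.9 FPKM. Model livers stood at 16.5, 19.3 and 18.3, which overlap the control values. The log2 difference was 0.21 (SE 0.17, 95% interval -0.16 to 0.59, adjusted p = 0.346 with limma). Relative to the median of all genes it was -0.12, and under scaling the sign turned, at -0.21.

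The remaining members act on cell death and survival. Bax encodes a BCL2 family protein that permeabilises mitochondria. It (ENSMUSG00000003873, chr7:45461697-45466898, minus strand) stood at 9.07, 9.55 and 9.85 FPKM in control and at 15.1, 13.3 and 14.01 in model livers, without overlap. The log2 difference of 0.53 (SE 0.22, 95% interval 0.05 to 1.00, adjusted p = 0.0790 with limma) did not pass. It ran from 0.12 under scaling to 0.99 with the leading transcript alone, and the adjusted p ran from 0.00498 to 0.673 over 23 settings.

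Phlda3 encodes a pleckstrin homology protein that competes with the survival kinase Akt for membrane lipids. It (ENSMUSG00000041801, chr1:135766119-135769136, plus strand) stood at 0.689, 0.611 and 0.712 FPKM in control livers and at 3.89, 3.04 and 3.46 in model livers. With silibinin it stood at 4.64, 3.53 and 1.97, and in phloridzin livers at 5.24, 2.42 and 2.55. All 9 CCl4 livers were above all 3 control livers, and the CCl4 groups overlapped. Phlda3 rose by 1.41 in the model (SE 0.26, adjusted p = 0.00266 with limma), 1.08 above the median of all genes, and was DE in all 23 settings.

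Eda2r encodes the receptor for ectodysplasin A2, of the tumour necrosis factor receptor family. It (ENSMUSG00000034457, chrX:97333840-97377216, minus strand) stood at 0.402, 0.326 and 0.280 FPKM in control livers and at 2.06, 3.67 and 2.39 in model livers. With silibinin it stood at 2.72, 2.50 and 1.304, and in phloridzin livers at 3.47, 0.922 and 0.554. Again every CCl4 liver was above every control liver, with phloridzin livers spread most widely. Eda2r rose by 1.45 in the model (SE 0.35, adjusted p = 0.00960 with limma), 1.11 above the median of all genes. The call was lost with the leading transcript alone (0.91, adjusted p = 0.0242, in a range of 0.000886 to 0.0378 over 23 settings) and with protein-coding transcripts alone (0.96, adjusted p = 0.0164).

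The size of the general shift depends on scaling. In median-ratio scaling between livers, the all-gene median of model against control went from 0.34 to 0.02, and the DE genes split into 531 up and 454 down in place of 1240 up and 142 down. Under that scaling 4 members were DE: Gadd45a (2.35, adjusted p = 0.000203), Btg2 (1.89, adjusted p = 0.00176), Eda2r (1.24, adjusted p = 0.0182) and Phlda3 (1.15, adjusted p = 0.00527). Over the 23 settings, adjusted p ran from 2.35e-05 to 0.000784 for Gadd45a, from 6.03e-05 to 0.00176 for Btg2, and from 0.000845 to 0.0113 for Phlda3.

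In silibinin livers, 3 of 10 members were DE against the model and all 3 were lower: Gadd45a, Btg2 and Cdkn1a. Among all genes tested, 4.0% were DE, 98 up and 428 down, a smaller share than among the members. Leaving out 1 liver gave 47 to 135 up and 359 to 446 down. The median log2 difference was -0.56 over the members and -0.15 over all genes. Scaling changed the split of all DE genes to 189 up and 242 down, and left the count of members at 3.

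Gadd45a fell by 2.53 on the log2 scale (SE 0.26, adjusted p = 0.000214 with limma), or -2.37 relative to the median of all genes. Btg2 fell by 1.37 (SE 0.26, adjusted p = 0.00737). Both calls held in all 23 settings. Cdkn1a fell by 1.277 (SE 0.34, adjusted p = 0.0312), and this call held in 16 of 23 settings. Its adjusted p over the settings ran from 0.0189 to 0.104, and it was 0.104 without silibinin replicate 3, where the log2 difference was -0.95. The call was also lost without model replicate 1 (adjusted p = 0.0566), model replicate 2 (0.0840), model replicate 3 (0.0857) or silibinin replicate 1 (0.0502), without the filter on low values (0.0542) and with the leading transcript alone (0.0543).

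A further 3 members had an adjusted p under 0.05 with limma and a difference short of the fold threshold: Gadd45b at -0.92 (adjusted p = 0.0141), Zmat3 at -0.57 (adjusted p = 0.0189) and Mdm2 at -0.56 (adjusted p = 0.0355). Under scaling Zmat3 (-0.39, adjusted p = 0.0665) and Mdm2 (-0.38, adjusted p = 0.0880) did not pass the p threshold either. Over the settings, adjusted p ran up to 0.0680 for Gadd45b, 0.0694 for Zmat3 and 0.325 for Mdm2, from 0.0103, 0.0158 and 0.00724. Gadd45b passed both thresholds in 4 of 23 settings, among them without model replicate 1 (-1.05) and without silibinin replicate 3, just past the threshold. Bax (-0.46, adjusted p = 0.190) did not pass. For Phlda3 the difference was -0.07 (95% interval -0.65 to 0.51), and scaling turned its sign, to 0.09. For Eda2r it was -0.23 (95% interval -1.001 to 0.54). Ccng1 was at -0.02, and at 0.18 under scaling.

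In phloridzin livers, 3 of 10 members were DE against the model, all lower: Gadd45a, Cdkn1a and Btg2. Among all genes tested, 3.52% were DE, 79 up and 384 down, again a smaller share. These counts were 34 to 117 up and 319 to 522 down with 1 liver left out. The median was -0.61 over the members and -0.11 over all genes. Scaling changed the split to 140 up and 244 down and left the members at 3. Both drug comparisons share the 3 model livers.

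Gadd45a fell by 2.35 on the log2 scale (SE 0.26, adjusted p = 0.000375 with limma) and held in all 23 settings. Cdkn1a fell by 1.50 (SE 0.34, adjusted p = 0.0171). Btg2 fell by 1.40 (SE 0.26, adjusted p = 0.00683). The Btg2 call was lost when only the phloridzin and model livers were fitted (adjusted p = 0.0675, in a range of 0.0053 to 0.0675). The Cdkn1a call held in 19 of 23 settings, with adjusted p from 0.00781 to 0.0640. It was lost without model replicate 2 (adjusted p = 0.0546), model replicate 3 (0.0527), phloridzin replicate 2 (0.0624) or phloridzin replicate 3 (0.0640).

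Gadd45b (-0.97, adjusted p = 0.0126) and Zmat3 (-0.60, adjusted p = 0.0164) passed the p threshold alone, with adjusted p of 0.00785 to 0.0615 and 0.00890 to 0.0703 over the settings. Mdm2 (-0.52, adjusted p = 0.0511) and Bax (-0.39, adjusted p = 0.277) did not pass. Without phloridzin replicate 1 both passed the p threshold, Mdm2 at -0.70 (adjusted p = 0.00482, in a range of 0.00482 to 0.210) and Bax at -0.69 (adjusted p = 0.00633, in a range of 0.00633 to 0.604). Phlda3 was at -0.07 (95% interval -0.66 to 0.51), and at 0.06 under scaling, with its sign turned. Eda2r was at -0.62 (95% interval -1.39 to 0.15) and Ccng1 at 0.04. That Gadd45a, Btg2 and Cdkn1a passed and Phlda3 and Eda2r did not was not tested as a difference between genes.

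**Figure D2:**
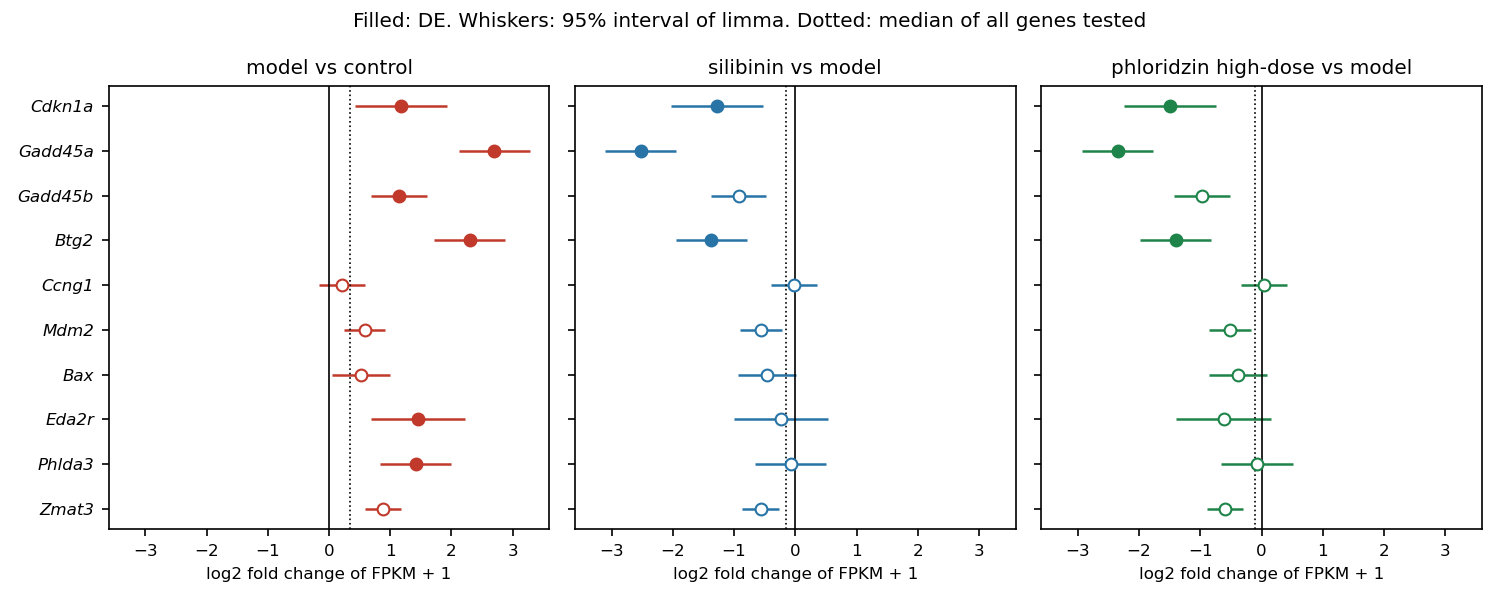
Log2 differences of the members (horizontal axis, FPKM + 1) in the comparisons, with 95% intervals of limma as whiskers, filled points for DE genes and a dotted line at the median of all genes tested. Gadd45a runs from 2.70 in model against control to -2.53 and -2.35 in the drug groups against the model, while Phlda3 sits at -0.07 in both of the latter (0.09 and 0.06, with the sign turned, under median-ratio scaling).

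Phloridzin replicate 1 stood apart from its group. Across all genes its correlation with the other phloridzin livers was 0.922 and 0.918, against 0.950 between those, a description over genes, which are not independent replicates. It had the highest value of its group for 55.6% of all genes tested and for 9 of 10 members, among them Bax (16.5 against 8.86 and 7.96 FPKM) and Mdm2 (4.46 against 2.90 and 2.61), and the lowest for Btg2. The proliferation genes Top2a (29.9 against 4.27 and 2.25 FPKM) and Mki67 (10.4 against 1.04 and 1.57) were also highest there.

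Without phloridzin replicate 1, 5 members were DE against the model in place of 3. Calls over all genes tested rose as well, to 116 up and 522 down in place of 79 and 384. The additional genes were Gadd45b (-1.12, adjusted p = 0.00785, in a range of 0.00785 to 0.0615 over 23 settings) and Eda2r (-1.08, adjusted p = 0.0160, in a range of 0.0160 to 0.618). Gadd45b also passed without model replicate 1 (-1.10) or model replicate 3 (-1.01), with a pseudocount of 0.1 (-1.40) and with voom (-1.55). With that liver left out, each phloridzin group value rests on 2 livers.

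Against control, Phlda3 was the member still called in both drug groups. In silibinin livers 1 of 10 members was DE against control, beside 1.98% of all genes tested (229 up and 32 down, or 152 up and 53 down under scaling). Leaving out 1 liver gave all-gene counts of 80 to 357 up and 20 to 43 down. Phlda3 rose by 1.34 (SE 0.26, adjusted p = 0.0203 with limma), 1.18 above the median of all genes. This call held under scaling (1.24) and was lost without control replicate 1 (adjusted p = 0.0651), control replicate 2 (0.0679), control replicate 3 (0.0579), silibinin replicate 1 (0.0805) or silibinin replicate 2 (0.0850), in a range of 0.00497 to 0.0850 over 23 settings. Eda2r was 1.22 above control (95% interval 0.45 to 1.99, adjusted p = 0.0734) and Btg2 0.93 (95% interval 0.35 to 1.51, adjusted p = 0.0701), both without overlap of the livers and neither DE. Every silibinin liver was above every control liver for 4 members and for 3468 of the 13158 genes tested. Without phloridzin replicate 1, which enters this fit through the variance, Eda2r was DE with silibinin.

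In phloridzin livers 1 of 10 members was DE against control, again Phlda3, beside 3.02% of all genes tested (360 up and 38 down, or 189 up and 62 down under scaling). The all-gene counts were 186 to 589 up and 28 to 46 down with 1 liver left out. Phlda3 rose by 1.34 (SE 0.26, adjusted p = 0.0161 with limma), 1.16 above the median of all genes. The call was lost without control replicate 1 (adjusted p = 0.0531) or control replicate 2 (0.0554), and when only these groups were fitted (0.0579), in a range of 0.00482 to 0.0579. Btg2 was 0.90 above control (adjusted p = 0.0618) and Eda2r 0.83 (adjusted p = 0.174). Gadd45a was at 0.35 (95% interval -0.24 to 0.93) and Cdkn1a at -0.32 (95% interval -1.07 to 0.43). The corresponding silibinin values were 0.17 (95% interval -0.41 to 0.76) and -0.10 (95% interval -0.85 to 0.66). Without phloridzin replicate 1 the phloridzin differences from control were 0.03 for Gadd45a, -0.61 for Cdkn1a and 0.37 for Eda2r. Phlda3 (1.06) was DE there, and so was Btg2 (1.203).

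**Figure D3:**
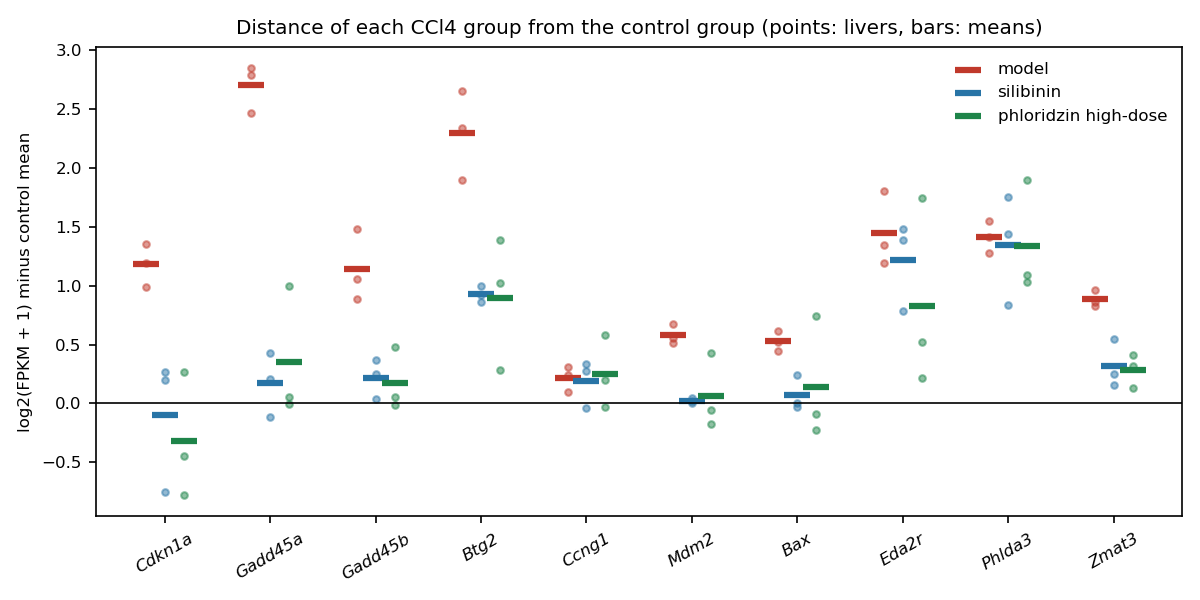
Level of each member in model, silibinin and phloridzin livers as log2(FPKM + 1) minus the control mean (vertical axis), with points for livers and bars for means. Gadd45a stands at 2.70, 0.17 and 0.35, Btg2 at 2.30, 0.93 and 0.90, and Phlda3 at 1.41, 1.34 and 1.34.

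Between the drug groups no member was DE with limma, and no member had an unadjusted p under 0.05. Among all genes tested, 3 were DE (0.0228%) and 494 had an unadjusted p under 0.05. The count of members was also 0 with voom on recovered fragments. The members' log2 differences, phloridzin minus silibinin, ran from -0.39 for Eda2r (95% interval -1.16 to 0.38) to 0.17 for Gadd45a (95% interval -0.41 to 0.76). Both ends depended on phloridzin replicate 1. Without it Gadd45a turned sign, to -0.15 (95% interval -0.60 to 0.30), and Eda2r was at -0.85 (95% interval -1.38 to -0.31, unadjusted p = 0.00569), with the count of DE members still 0. The signs of Mdm2, Ccng1, Bax and Btg2 turned as well. With all livers the difference was -0.22 for Cdkn1a (95% interval -0.98 to 0.53), -0.03 for Btg2 (95% interval -0.61 to 0.55) and 0.00 for Phlda3 (95% interval -0.58 to 0.58), and without that liver -0.52, 0.28 and -0.28. Intervals of this width do not show that the compounds act alike, and the doses of the drugs differed in the study.

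The transcripts behind the sums differed between members. Btg2 and Ccng1 have a single transcript in the table. For Cdkn1a the leading transcript carried 92.8% of the sum, for Phlda3 98.4% and for Zmat3 85.4%. For Gadd45a the protein-coding transcript of 1223 bases carried 41.7%, with means of 0.425 ± 0.363 FPKM in control, 7.88 ± 1.29 in model, 0.596 ± 0.229 in silibinin and 0.498 ± 0.496 in phloridzin livers (SD, n = 3 each). Retained-intron transcripts of Gadd45a carried another 22.1%, 21.6% and 12.2%, and their model means, 3.24, 3.50 and 1.46 FPKM, were above their control means of 0.327, 0.361 and 0.423.

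For Gadd45b the leading transcript carried 70.7%, and 2 others 17.6% and 11.6%. For Bax 3 protein-coding transcripts carried 57.0%, 27.3% and 11.9%. Their values traded places between livers: the leading one had means of 4.01 FPKM in control and 9.09 in model livers, the next 3.91 and 2.74. For Mdm2 most of the sum came from transcripts that do not encode the protein: 31.1% and 25.4% from retained-intron transcripts and 19.5% from a processed transcript. Its protein-coding transcripts carried 3.79% and 3.74%. With protein-coding transcripts alone, Mdm2 fell below the filter on low values.

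For Eda2r the protein-coding transcript carried 60.6%, with means of 0.336 ± 0.0615 FPKM in control and 1.56 ± 0.619 in model livers (SD, n = 3 each). A retained-intron transcript of Eda2r carried 33.4%. It was listed at 0 in all 3 control livers and in phloridzin replicates 2 and 3, and averaged 0.926 ± 0.200 in model livers. Transcript shares depend on how the assembly divides fragments between overlapping transcripts, so these values are less certain than the gene sums.

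**Figure D4:**
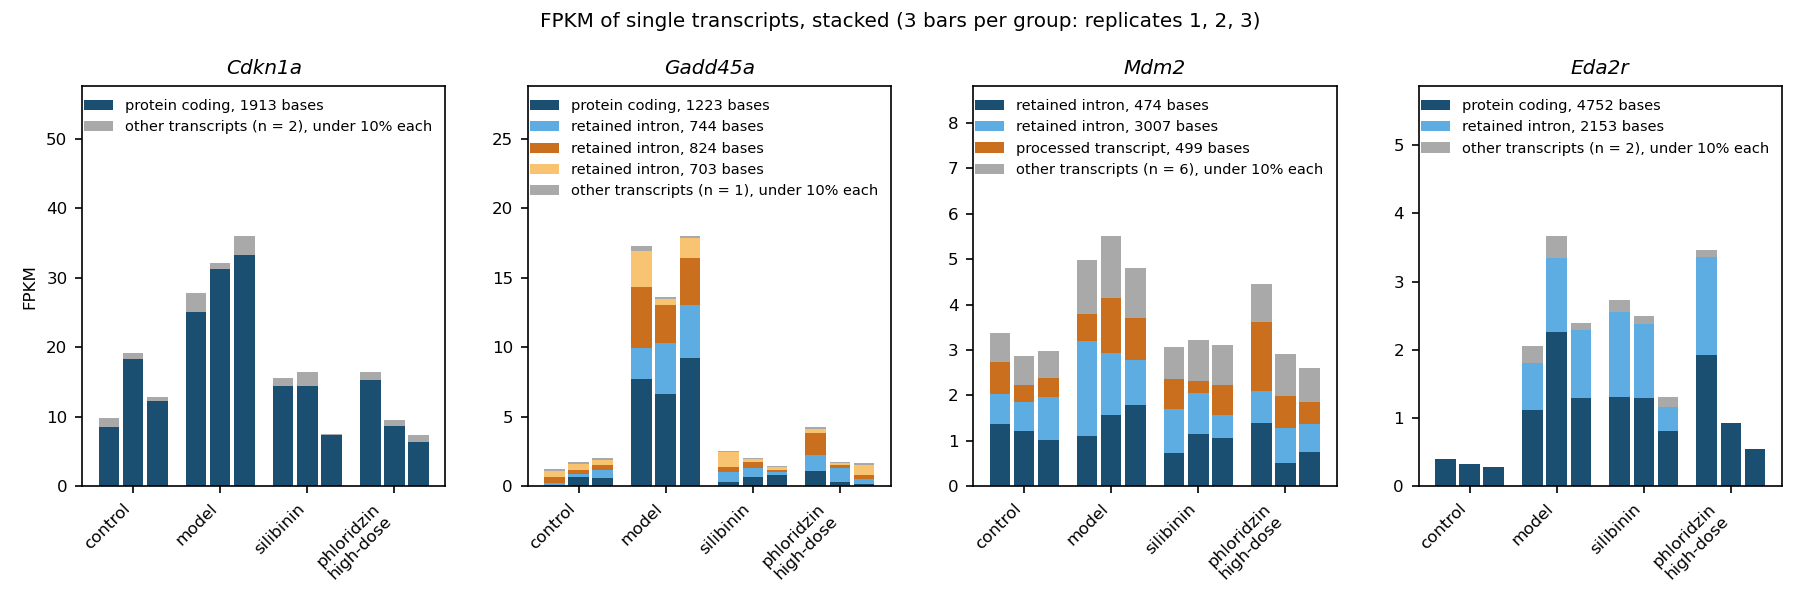
FPKM of single transcripts of Cdkn1a, Gadd45a, Mdm2 and Eda2r, stacked in a bar for each liver (vertical axis from 0, 3 bars in each group for replicates 1, 2 and 3). In Gadd45a the protein-coding transcript reaches a mean of 7.88 in model livers, and in Eda2r the retained-intron transcript is at 0 in all control livers.

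The library kit is not stated to keep strand. Unnamed transcripts on the opposite strand overlap the spans of Cdkn1a, Ccng1, Gadd45a and Zmat3. Where they share sequence with the member, their reads cannot be told apart from its own. The most abundant of them, over Ccng1, averaged 0.859 FPKM, and that over Cdkn1a averaged 0.0779. Several lie over Gadd45a. The most abundant of those averaged 0.267, 0.0738, 0.466 and 0.511 FPKM in control, model, silibinin and phloridzin livers. Gadd45a itself averaged 1.67, 16.3, 2.02 and 2.55. That transcript spans chr6:67037400-67038001, and the Gadd45a span ends at 67037457. Most of the transcript thus lies outside the gene, and its value is not a measure of shared reads. The span of Bax overlaps that of a Gm45808 transcript on the same strand, which averaged 0.187 FPKM. Only spans were compared in all these cases, so sharing of exons was not tested.

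Genes with the most similar profiles over the 12 livers were found by the smallest root mean square (RMS) difference of log2(FPKM + 1), each gene taken relative to its own mean. For Gadd45a, whose own profile has an RMS of 1.14, they were Nrg1 (0.18), Hid1 (0.30) and Mmp13 (0.33). Mmp13 encodes a collagenase, and its group means were 0.0368, 5.72, 0.489 and 0.986 FPKM in control, model, silibinin and phloridzin livers. For Btg2 (own RMS 0.87) they were Osmr (0.27), Plaur (0.30) and Raph1 (0.31). Osmr, a receptor subunit for oncostatin M, averaged 2.65, 15.2, 5.18 and 5.12 FPKM in the same order. For Cdkn1a (own RMS 0.70) they were Ostc (0.24), Mlec (0.26) and Nme6 (0.28), of which Ostc and Mlec encode proteins of the endoplasmic reticulum. For Gadd45b (own RMS 0.49) they were Gm7334 (0.15), Trip10 (0.15) and Siah2 (0.15).

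Phlda3 and Eda2r had other neighbours. For Phlda3 (own RMS 0.66) the nearest were Hpgds (0.16), Adamts2 (0.17) and Fstl1 (0.18). Adamts2 encodes the enzyme that trims procollagen, and Fstl1 averaged 1.46, 6.57, 6.62 and 6.72 FPKM in control, model, silibinin and phloridzin livers. For Eda2r (own RMS 0.67) the nearest were Loxl2 (0.22), Olfml3 (0.22) and Pdk4 (0.23). Loxl2, which crosslinks collagen, averaged 0.422, 2.92, 2.48 and 2.17 FPKM. These are likenesses over the same 12 livers, chosen as the nearest of 13158 genes, and no test was made of them.

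Other genes of the pathway were described from lists of p53 regulators, further p53 targets, further growth arrest genes, the BCL2 family and S phase and mitosis genes. The counts of each list stand beside 10.5% of all genes tested that were DE in the model, 1240 up and 142 down. Against the model these shares were 4.0% with silibinin and 3.52% with phloridzin. Of 18 p53 regulators, 14 were tested. In the model 2 were DE, both up: Chek1, a kinase of the DNA damage checkpoint (1.27, adjusted p = 0.00312 with limma), and Mdm4, the Mdm2-like inhibitor of p53 (1.19, adjusted p = 0.00132). Mdm4 lost its call under scaling (0.82), with the leading transcript alone (0.88) and with protein-coding transcripts alone (0.55). The list's median was 0.50, against 0.34 over all genes.

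Trp53 itself, the gene for p53, stood at 1.58, 2.38 and 2.30 FPKM in control and at 3.40, 4.27 and 5.39 in model livers. With silibinin it stood at 1.05, 2.40 and 1.23, and in phloridzin livers at 2.16, 2.29 and 3.28. Model livers were above the others, and the other groups overlapped. In the model the difference of 0.79 (SE 0.22, adjusted p = 0.0203 with limma) was short of the fold threshold, and under scaling it was 0.46 (adjusted p = 0.169, in a range of 0.0112 to 0.237). In silibinin livers Trp53 fell by 1.08 against the model (SE 0.22, adjusted p = 0.0102), the only DE regulator there. That call was lost under scaling (-0.92), with the leading transcript alone (-0.51), with protein-coding transcripts alone (-1.24, adjusted p = 0.0570), without model replicate 3 (-0.95) and without silibinin replicate 1 (-0.94), and its adjusted p ran from 0.00626 to 0.235. In phloridzin livers no regulator was DE with limma (6 of 14 had an unadjusted p under 0.05), and Trp53 was at -0.58 (adjusted p = 0.122).

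Ppm1d, a phosphatase that turns the p53 response off, was at 0.41 in the model (adjusted p = 0.0435), short of the fold threshold, and at 0.10 under scaling (adjusted p = 0.601, in a range of 0.0316 to 0.601). Cdkn2a was too low to test, with means of 0.0691, 0.266, 0.328 and 0.298 FPKM in control, model, silibinin and phloridzin livers.

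Of 41 further p53 targets, 38 were tested. In the model 5 were up and 1 was down, and the list's median was 0.25, below the 0.34 of all genes. Trp53inp1, an autophagy and death adaptor, rose by 1.94 (SE 0.16, adjusted p = 4.02e-05 with limma). Gdf15, a stress hormone of the TGF-beta family, rose by 1.78 (SE 0.26, adjusted p = 0.000715). Plk3, a stress kinase, rose by 2.11, Ddit4, an mTOR inhibitor, by 1.26, and Dram1, a lysosomal protein, by 1.03. Dcxr, a carbonyl reductase, fell by 1.26. Under scaling the list split into 2 up, Trp53inp1 and Gdf15, and 2 down, Dcxr (-1.69, adjusted p = 0.00169, in a range of 0.00169 to 0.0181) and Steap3, a ferrireductase. Steap3 was at -1.09 there (adjusted p = 0.00214, in a range of 0.00214 to 0.0829) and at -0.73 without scaling (adjusted p = 0.0140). Plk3, Ddit4 and Dram1 were not DE under scaling (1.72, 0.90 and 0.83).

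In silibinin livers 3 of these targets fell against the model, Plk3 (by 2.66), Gdf15 (by 1.68) and Trp53inp1 (by 1.66), and Steap3 rose by 1.04. In phloridzin livers Gdf15 (by 1.87) and Trp53inp1 (by 1.53) fell, and Plk3 was at -1.74 (adjusted p = 0.0783 with limma). Without scaling Dcxr was at 0.80 and 0.99 in the drug groups, in that order, and Steap3 at 0.90 with phloridzin (adjusted p = 0.0118). Under scaling Steap3 with phloridzin (1.04, adjusted p = 0.00581, in a range of 0.00581 to 0.0763) and Dcxr with phloridzin (1.16, adjusted p = 0.0199, in a range of 0.0183 to 0.102) were DE, both up. So was Dcxr with silibinin, just past the threshold (adjusted p = 0.0341, in a range of 0.0341 to 0.185). Trp53inp1 stood at 10.1, 12.01 and 7.82 FPKM in control, 46.2, 40.5 and 36.1 in model, 11, 13.2 and 12.5 in silibinin and 12.8, 15.0 and 12.8 in phloridzin livers. Its treated livers overlapped the control range or lay just above it, below every model liver, and these 3 calls held in all 23 settings. Ckap2 and Psrc1, which act on the spindle, were DE against control in the drug groups: Ckap2 by 2.93 in silibinin and 2.89 in phloridzin livers, Psrc1 by 1.00 and 1.10. These calls depended on the setting. They held in 12 and 16 of 23 settings for Ckap2 and in 13 and 15 of 20 for Psrc1, with adjusted p up to 0.132, 0.107, 0.121 and 0.0694, from 0.00150, 0.00405, 0.00360 and 0.00284. Under scaling Psrc1 with silibinin was at 0.99, short of the fold threshold. Phloridzin replicate 1 was far above its group in both, with Ckap2 at 29.9 against 2.93 and 3.44 FPKM and Psrc1 at 2.26 against 1.04 and 0.771. Without it the phloridzin differences were 1.93 for Ckap2, still DE, and 0.84 for Psrc1, which was not. Sesn2 was at 0.47 in the model (adjusted p = 0.230).

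Calls of some of these targets depended on the setting or on a liver. Plk3 in the model was lost under scaling (adjusted p = 0.0655), without control replicate 2 (0.0636), control replicate 3 (0.0565) or model replicate 1 (0.0511), in a range of 0.00482 to 0.0655. Ddit4 was lost without control replicate 1 (0.102), control replicate 3 (0.0567), model replicate 1 (0.0948) or model replicate 3 (0.0894) and without the filter on low values (0.0517), in a range of adjusted p from 0.0158 to 0.120. Dram1 fell just short of the fold threshold without control replicate 2 (1.00), and was at 0.86 without model replicate 2 and at 0.98 with the leading transcript or protein-coding transcripts alone. With the leading transcript alone Gdf15 lost its calls with silibinin (-1.58, adjusted p = 0.0662, in a range of 0.000893 to 0.0662) and phloridzin (-1.57, adjusted p = 0.0718, in a range of 0.00103 to 0.0718). Steap3 was at 0.86 without model replicate 2 and 0.91 without silibinin replicate 2.

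Of 24 further growth arrest genes, 23 were tested, and 4 were DE in the model, all up, with a list median of 0.57. Klf6, a Kruppel-like factor that induces p21, rose by 2.77 (SE 0.20, adjusted p = 1.55e-05 with limma). It stood at 3.95, 2.96 and 2.78 FPKM in control and at 24.0, 35.4 and 24.5 in model livers, then at 6.46, 7.58 and 5.99 with silibinin and 9.25, 6.50 and 6.10 with phloridzin. Treated livers were above all control livers and below all model livers. Klf6 fell by 1.90 with silibinin and by 1.80 with phloridzin against the model. All of these Klf6 calls held in all 23 settings.

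Ndrg1 (1.29), Klf4 (1.21) and Rbl1 (1.10) were also up in the model, and none of these 3 was DE under scaling (0.89, 0.95 and 0.85). Rbl1 was also lost with the leading transcript or protein-coding transcripts alone (0.98 in each) and without control replicate 3 (adjusted p = 0.0510, in a range of 0.000242 to 0.0510). Cdkn2c, which encodes the kinase inhibitor p18, was the growth arrest gene that rose in the drug groups against the model, by 1.16 in silibinin and 1.04 in phloridzin livers. It stood at 2.93, 2.55 and 3.47 FPKM in model livers against 6.94, 9.63 and 7.23 with silibinin and 10, 6.98 and 5.20 with phloridzin. With the leading transcript alone the silibinin difference was -0.01 and the phloridzin difference 0.53, and neither call held. With voom neither call held (adjusted p = 0.0861 and 0.0637). The phloridzin call was also lost without model replicate 2 (0.96) or phloridzin replicate 1 (0.83), and when only those groups were fitted (adjusted p = 0.0615). Adjusted p over the settings spanned 0.00109 to 0.996 for the silibinin difference and 0.00229 to 0.498 for the other. Against control Cdkn2c was DE with silibinin (1.57) and phloridzin (1.45), in 22 of 23 settings each, and both calls were lost with the leading transcript alone (0.77 and 1.31). Gas2 was at 0.89 with phloridzin against the model (adjusted p = 0.0111), and was DE under scaling (1.05, adjusted p = 0.0145, in a range of 0.00364 to 0.05). It was DE in phloridzin livers against control (1.08), but not under scaling (0.83, adjusted p = 0.0556, in a range of 0.00397 to 0.0556) or without phloridzin replicate 2 (0.98). Cdkn1b, which encodes p27, was at 0.57 in the model (adjusted p = 0.105).

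Of 16 BCL2 family genes, 14 were tested, with a list median of 0.65 in the model. In the model Bcl2a1b (2.76), Bcl2a1d (1.42) and Bcl2a1a (1.27) were up, and Bik, a death-promoting member, was down (-1.21). The 3 Bcl2a1 genes are near-identical copies whose reads the assembly may divide between them, so the value of each is uncertain. With silibinin and with phloridzin no member of this list was DE against the model with limma, and 7 and 6 had an unadjusted p under 0.05. Under scaling 1 was DE with phloridzin, up and just past the fold threshold. Against control Bcl2a1b was DE with silibinin (1.86) and phloridzin (2.09), in all 23 settings.

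The 36 S phase and mitosis genes were all tested. In the model 10 were DE (8 under scaling), all up, and the list's median was 0.95. Ccnd1, which encodes cyclin D1, rose by 3.18 (SE 0.30, adjusted p = 9.31e-05 with limma), and fell by 1.44 with silibinin and by 1.34 with phloridzin. The Ccnd1 call with phloridzin was lost without phloridzin replicate 3 (-0.95) and when only those groups were fitted (adjusted p = 0.0897, in a range of 0.00208 to 0.0897). Cdc20 (3.21), Cdc25a (1.45), Ccne2 (1.24) and Ccne1 (1.21) were up, and these calls in the model held in every setting in which the gene was tested.

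Ccnb1 (2.26), Rrm2 (2.13), Top2a (2.09), Ccnb2 (2.01) and Mcm6 (1.63) were up as well. Each of these 5 calls was lost without model replicate 3, with adjusted p of 0.0573, 0.0881, 0.0655, 0.0980 and 0.0547 in that order. Leaving out any other control or model liver ended the Rrm2, Top2a and Ccnb2 calls too. Under scaling Ccnb2 (1.81, adjusted p = 0.0525) and Rrm2 (1.81, adjusted p = 0.0635) were not DE. With the leading transcript alone none of the 5 calls held, with adjusted p of 0.141, 0.0577, 0.0529, 0.0576 and 0.0528. Ccnb1 was also lost without control replicate 1 (0.0506) or control replicate 2 (0.0512) and with protein-coding transcripts alone (0.0543). Mcm6 was also lost without control replicate 2 (0.0599), control replicate 3 (0.0507) or model replicate 2 (0.0576). Without the filter on low values Rrm2 (0.0612) and Ccnb2 (0.0624) did not pass, nor did Rrm2 with voom (0.0511). Over the settings, adjusted p ran from 0.000309 to 0.141 for Ccnb1, 0.000746 to 0.0946 for Rrm2, 0.000238 to 0.0805 for Top2a, 0.00185 to 0.0980 for Ccnb2 and 7.6e-05 to 0.0599 for Mcm6.

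With silibinin 3 of the 36 were down against the model, Ccnd1, Cdc25a (-1.13) and Ccne1 (-1.01), and with phloridzin Ccnd1 was. The list's medians against the model were 0.00 with silibinin and 0.21 with phloridzin, beside -0.15 and -0.11 over all genes. Without phloridzin replicate 1 the phloridzin median turned sign, to -0.34, beside -0.18 over all genes. Cdc25a was not DE under scaling (-0.96). The Ccne1 call held in 15 of 22 settings and was lost without model replicate 1 (-0.97), model replicate 3 (-0.98), silibinin replicate 2 (-0.89) or silibinin replicate 3 (-0.98). It was also lost under scaling (-0.88) and with the leading transcript or protein-coding transcripts alone (-0.91 in each). Among all genes tested, 1.98% were DE against control in silibinin livers and 3.02% in phloridzin livers. Against control, 4 of the 36 were DE in silibinin livers (Cdc20, Ccnb2, Ccnb1 and Ccnd1) and 6 in phloridzin livers (those and Ccna2 and Top2a), all up. Phloridzin replicate 1 was far above its group in these genes, with Ccna2 at 28.8 against 3.18 and 2.49 FPKM and Cdc20 at 49.8 against 5.04 and 4.76. Without it the phloridzin differences from control went from 2.53 to 1.55 for Ccna2, from 2.46 to 1.49 for Top2a and from 3.44 to 2.41 for Cdc20. All 6 stayed DE, and the counts against control were 17 with silibinin and 8 with phloridzin. Calls over all genes tested were then 357 up and 43 down with silibinin, and 210 up and 35 down with phloridzin. That liver enters the silibinin comparison through the variance alone, so the silibinin log2 differences did not change. The Ccna2 and Top2a calls held in 8 of 23 settings each, with adjusted p of 0.0113 to 0.145 and 0.0141 to 0.158. Ccnb1 and Ccnb2 held in 11 and 15 with silibinin and 17 and 16 with phloridzin, Cdc20 in 16 and 20, and Ccnd1 in 22 in each. Mki67, a marker of cycling cells, was at 1.26 in the model (adjusted p = 0.0816 with limma).

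**Figure D5:**
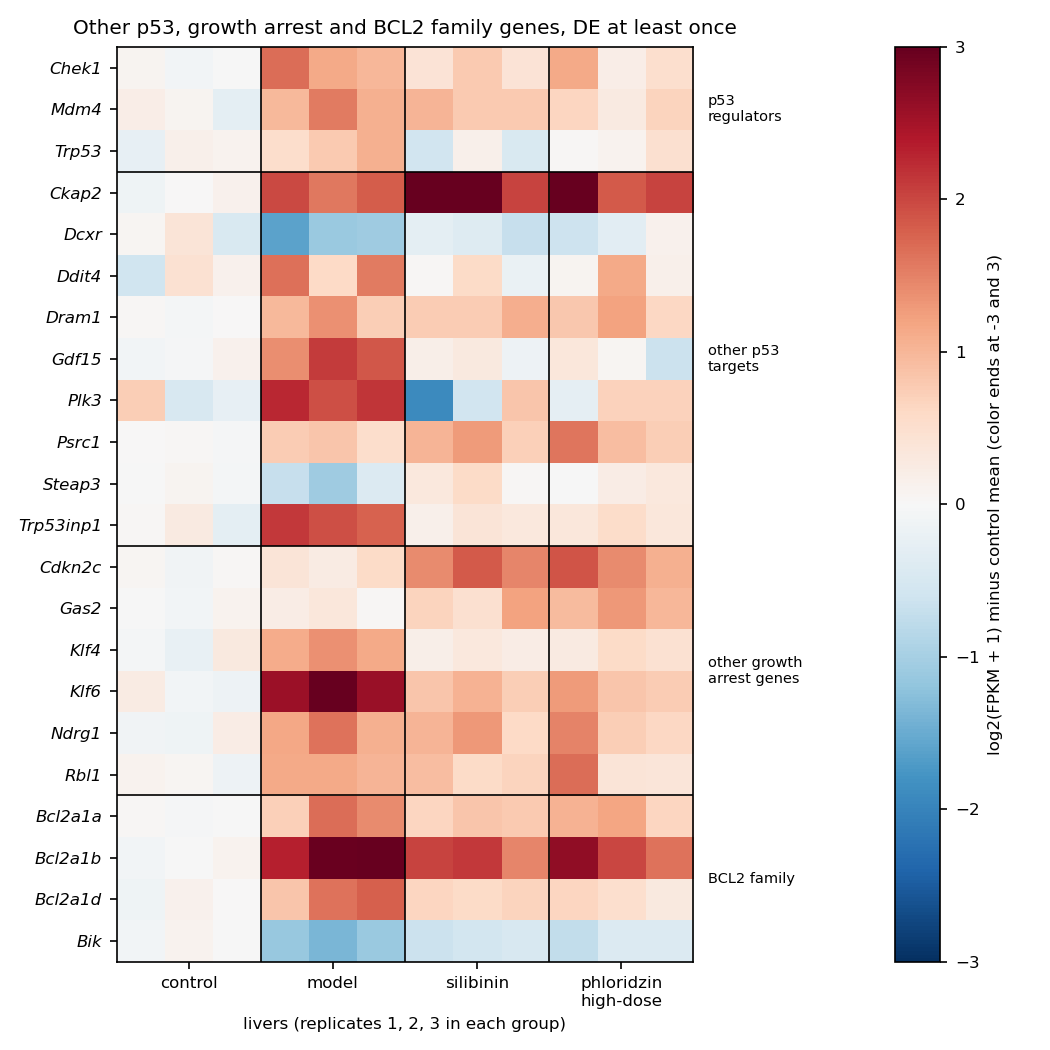
Level of each p53 regulator, further p53 target, further growth arrest gene and BCL2 family gene that was DE in at least 1 comparison (vertical axis, by list) in each of the 12 livers (horizontal axis), as log2(FPKM + 1) minus the control mean, with color ends at -3 and 3. Klf6, Trp53inp1 and Gdf15 are high in the model livers, with model means of 28.0, 40.9 and 12.2 FPKM, and Cdkn2c is higher in the drug groups, with means of 7.93 and 7.40 against 2.98 in the model.

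Markers of other cells moved with the groups. Their counts in the model stand beside 10.5% of all genes tested, 1240 up and 142 down. Of 10 stellate cell and myofibroblast markers, 6 were up in the model and none down. Of these calls, Tagln was lost under scaling (0.87), and Timp1 with the leading transcript alone (adjusted p = 0.140, in a range of 0.000745 to 0.140). Col1a2 was lost without control replicate 2 (adjusted p = 0.0538), control replicate 3 (0.0613) or model replicate 1 (0.0587), and with the leading transcript (0.77) or protein-coding transcripts alone (0.53), in a range of 0.00750 to 0.552. The sum of the 10 was 34.6, 25.1 and 28.9 FPKM in control livers, 174, 142 and 177 in model livers, 168, 161 and 80.9 with silibinin and 227, 95.4 and 74.9 with phloridzin. Col3a1 was the most abundant, and Timp1 was listed at 0 in control replicate 3. All CCl4 livers were above all control livers in this sum, and phloridzin replicate 1 was highest.

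Of 12 macrophage markers, 4 were up in the model and none down, of which Trem2 was lost with the leading transcript alone (adjusted p = 0.0780, in a range of 0.000154 to 0.0780). The sum of the 12 was 145, 250.0 and 208 FPKM in control livers, 407, 653 and 557 in model livers, 470, 591 and 449 with silibinin and 739, 711 and 389 with phloridzin. Lyz2 was the most abundant, and Gpnmb was listed at 0 in control replicate 2. Here too the CCl4 livers were above the control livers and overlapped each other. Against the model, Cd14 was the macrophage marker called in each drug group, and it was lower.

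The 8 cholangiocyte markers, led by Spp1, summed to 13.2, 15.2 and 18.3 FPKM in control livers, 48.3, 56.9 and 51.5 in model livers, 50.9, 53.7 and 41.4 with silibinin and 57.6, 60.5 and 57.4 with phloridzin. Of 4 tested, 1 was up in the model (Spp1), and Cftr was listed at 0 in control replicate 1. With phloridzin Tff3, which encodes a secreted trefoil factor, rose by 3.18 against the model (adjusted p = 0.0144 with limma), from a mean of 1.04 to 23.1 FPKM, while that of Spp1 was 45.9 and 29.0. The Tff3 call was lost without phloridzin replicate 2 (adjusted p = 0.0602) or phloridzin replicate 3 (0.0560), when only those groups were fitted (0.0553) and with voom (0.0549), in a range of 0.00144 to 0.0602. The 7 neutrophil markers, led by S100a8, summed to 22.2, 8.46 and 23.9 FPKM in control livers, 29.7, 75.1 and 47.2 in model livers, 19.2, 28.3 and 11.3 with silibinin and 24.4, 84.5 and 41.0 with phloridzin. Of 4 tested, Retnlg was up in the model (1.197) and down with silibinin (-1.36), and S100a9, Ly6g and Mpo were listed at 0 in some liver. The Retnlg calls held in 16 and 11 of 23 settings, with adjusted p of 0.0220 to 0.137 and 0.0209 to 0.139, and neither held under scaling (0.85 and -1.18). Cholangiocyte sums separated CCl4 from control livers, and neutrophil sums of the model overlapped those with phloridzin.

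The 10 lymphocyte markers, led by Nkg7, summed to 2.13, 3.82 and 3.19 FPKM in control livers, 5.80, 8.68 and 7.55 in model livers, 4.76, 7.73 and 6.12 with silibinin and 12.8, 6.37 and 5.92 with phloridzin. The 8 endothelial markers, led by Clec4g, summed to 69.4, 66.1 and 81.5 FPKM in control livers, 76.6, 97.3 and 80.9 in model livers, 54.8, 95.3 and 40.1 with silibinin and 99.2, 106 and 75.4 with phloridzin. The 10 hepatocyte markers summed to 20010, 26840 and 20050 FPKM in control livers, 18470, 27670 and 30470 in model livers, 30070, 37520 and 22330 with silibinin and 25400, 33510 and 26920 with phloridzin. No marker of these 3 lists was DE in the model with limma, and 3 of 5, 1 of 8 and 1 of 10 tested had an unadjusted p under 0.05.

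Phlda3, Eda2r, Btg2 and Zmat3 stood above control in all CCl4 livers, as did 15.9% of all genes tested (2088) and the stellate cell, macrophage, cholangiocyte and lymphocyte sums. Gadd45a, Gadd45b, Btg2, Cdkn1a, Mdm2 and Zmat3 were below the model in all drug livers, as were 18.1% of all genes (2382). Some marker sums were below every model liver as well. These were the stellate cell sums of silibinin replicate 3 and phloridzin replicates 2 and 3, the macrophage sum of phloridzin replicate 3, the cholangiocyte sum of silibinin replicate 3, and the neutrophil sums of phloridzin replicate 1 and all silibinin livers. So were the lymphocyte sum of silibinin replicate 1 and the endothelial sums of silibinin replicates 1 and 3 and phloridzin replicate 3. All 3 phloridzin livers had cholangiocyte sums above every model liver, which include Tff3. The part of these cell types in the members' values was not tested.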

How the data were processed

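Total RNA of 12 mouse livers (4 groups of 3) was made into libraries with an Illumina kit that is not stated to keep strand, and sequenced. Per the labels, the authors used bcl2fastq, FastQC 0.11.5, HISAT2 2.1.0, StringTie 1.3.3b and DESeq 1.28.0 on build mm10. The deposited values are FPKM per transcript, made by the authors, for 169430 transcripts, of which 82136 have a symbol. No column of values was left unmapped to a sample (0). The unit was checked on the values: for transcripts no shorter than 1500 bases, FPKM times length gave whole multiples of a step for each liver, up to 20 fragments and within 0.1, for 98.9% to 99.2% of values, which also gave the depth.

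FPKM was summed per symbol and liver, and the 10 members were taken by symbol. Genes with a mean of at least 0.5 FPKM (13158) were fitted as log2(FPKM + 1) with limma 3.58.1 (empirical Bayes with trend) on all 12 livers at once, with 6 contrasts, two-sided, and Benjamini-Hochberg adjustment over all genes within each contrast. DE means an adjusted p under 0.05 and a log2 difference above 1 or below -1. The procedure was tested on simulated data. An exact permutation test was planned for members below the filter and was not needed, since all 10 passed. Software was R 4.3.3, the R package data.table (1.17.8), Python 3.11.15, matplotlib 3.10.9, scipy 1.17.1, pandas 2.3.3 and numpy 2.4.6.

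Alternatives were a pseudocount of 0.1, no filter, a filter at a mean of 1, median-ratio scaling, only the groups compared, the replicate number as a block, Ensembl transcripts only, the leading transcript, voom on fragments recovered from FPKM and length, empirical Bayes without trend, no fold threshold, and each of the 12 livers left out in turn. Protein-coding transcripts alone were added after seeing the data. Ensembl transcripts only gives the same values, since all 82136 transcripts with a symbol are from Ensembl.

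The members and lists were chosen with earlier results of these data known. Named genes are all members, every gene of the other lists that was DE in a contrast, and Trp53, Mdm4, Ppm1d, Cdkn2a, Sesn2, Gdf15, Cdkn1b, Ccnd1 and Mki67 in any case. For each DE member the 3 tested genes with the nearest profile are named, and transcripts with at least 10% of a gene's sum are described. Markers named one by one were chosen after their values were seen. Promoter sequences are from RefSeq, build GRCm38.p6.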

Additional observations from a re-analysis of the deposited data

Results flagged for a closer look

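An unnamed transcript inside Mdm2 (chr10:117698687-117701649, minus strand, the strand of Mdm2) has no symbol and is not part of the gene sums. It was picked because every model liver was above every control liver, so that direction is the rule of choice and not a finding. Among the gene sums tested, 45.1% met the same condition. It averaged 3.82 FPKM in model livers (SD 0.725, n = 3) and 1.93 in control livers (SD 0.538, n = 3). By liver it stood at 2.16, 2.31 and 1.32 in control, 4.65, 3.51 and 3.31 in model, 2.41, 2.91 and 1.54 in silibinin and 2.88, 1.66 and 2.27 in phloridzin livers. All 3 model livers were above all other livers, as they were for 16.7% of the gene sums tested. The difference was not tested.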

How the results depend on the processing

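The count of DE members in the model against control was 6, and 4 to 8 over the alternatives (4 to 6 with a liver left out). Against the model it was 3 with silibinin, 2 to 3 with a liver left out, and 3 with phloridzin, 2 to 5 with a liver left out (5 without phloridzin replicate 1). Without the fold threshold these counts were 6 and 5, beside 1849 and 1691 of all 13158 genes tested, in place of 526 and 463. Against control the count was 1 in each drug group, and 0 to 2 in each with a liver left out. It was 0 without control replicate 1 or 2 in both, with silibinin also without control replicate 3 or silibinin replicate 1 or 2, and it was 2 in both without phloridzin replicate 1. With silibinin it was 3 at a pseudocount of 0.1 and 2 when only the groups compared were fitted. With phloridzin it was 0 in that fit. Calls over all genes tested moved too. In silibinin livers they were 782 up and 46 down at that pseudocount, and 301 up and 38 down in that fit. In phloridzin livers they were 122 up and 21 down in that fit. Without phloridzin replicate 1 they were 357 up and 43 down with silibinin, and 210 up and 35 down with phloridzin. Between the drug groups the count of DE members was 0 in all alternatives, 0 to 0 with a liver left out.

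With the replicate number as a block, the counts in the order above were 6, 3, 3, 1, 1 and 0. Pairs of livers with the same number were correlated at -0.091 to 0.101 after group means. With 3 livers in each group, these values cannot show whether the numbers pair livers.

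Over all members and alternatives, 214 log2 differences in the model against control kept their direction and side of the threshold, 12 lost the call, 2 gained it and 1 turned sign. With silibinin these were 213, 7, 4 and 5, and with phloridzin 213, 5, 6 and 5. The turns were in Ccng1 and Phlda3, which were not DE in those comparisons. Under scaling they were -0.209 for Ccng1 in the model, 0.179 for Ccng1 and 0.088 for Phlda3 with silibinin, and 0.060 for Phlda3 with phloridzin. With a liver left out, Ccng1 ran from -0.095 to 0.089 with silibinin (0.023 without model replicate 2, 0.089 without silibinin replicate 3). With phloridzin it ran from -0.131 to 0.178 (-0.131 without phloridzin replicate 1, -0.023 without model replicate 1). Phlda3 ran from -0.278 to 0.183 with silibinin (0.183 without silibinin replicate 3). With phloridzin it ran from -0.354 to 0.080 (0.080 without phloridzin replicate 2, 0.053 without phloridzin replicate 3). The cause was not tested.

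Of 41 calls of genes of the other lists in these 3 comparisons, 20 held in every setting, and 1 turned sign in a setting (Cdkn2c with silibinin, leading transcript).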
